A study of Homo sapiens with 12 samples.

Results

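The NF-kB and inflammatory genes described here are 37 human genes chosen by symbol: the NF-kB subunits, their inhibitors, signalling and survival factors, cytokines, chemokines, surface proteins and PTGS2. All 37 were found among the 26481 genes kept from the count table. A gene was used when 10 or more counts were held by at least 2 of the 12 libraries, which 32 of the 37 met (14248 of all genes met it). The low-count filter of the test kept 31 of these 32. The 37 symbols were listed without a threshold on a fold change or test, though earlier results of these data were known. The count minimum then decided which were used.

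NF-kB is a family of dimeric transcription factors that inhibitor proteins hold in the cytoplasm. In the canonical pathway, receptors for TNF, IL-1 or microbial products activate a kinase complex that removes the inhibitor NFKBIA, and dimers of RELA and the NFKB1 product enter the nucleus. In the non-canonical pathway, the NFKB2 product is processed and pairs with RELB. Many target genes encode the pathway's own subunits and inhibitors, so that their transcripts are commonly read as its output. In myeloid leukaemia cells the pathway is known for its part in survival and in cytokine production.

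The cells were HEL, an established human erythroleukaemia line used as a model of acute myeloid leukaemia (AML), carrying lentiviral DNA barcodes. Untreated cells (NT, n = 2) were cultured with the solvent dimethyl sulfoxide. The relapses had been exposed to the anthracycline doxorubicin at 1.8 µM (Doxo, n = 3), to doxorubicin with the nucleoside analogue cytarabine at 6 µM (Doxo+Cyta, n = 3), or to both drugs with decitabine, a DNA methyltransferase inhibitor, at 0.1 µM (Doxo+Cyta+DAC, n = 4, here also called the decitabine group). Drugs were present for the first 72 to 74 h, and live cells were collected after regrowth of about 30 days, so that the values describe regrown populations and not cells under drug. All groups derive from 1 cell line, no decitabine-only group was analysed, and libraries are named below by group and replicate number. The labels describe biological replicates but no sequencing batch, and none could therefore be taken into account.

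Total counts per library lay between 12763582 and 19106235, and 3 counts, the lowest level taken as measurable, corresponded to 0.157 to 0.235 counts-per-million (CPM); this limit covers counting error only. Levels are CPM scaled by the TMM method, a fold change is the first group named over the second on the log2 scale written ± its standard error (SE), and a gene was called at an adjusted p under 0.05 (edgeR quasi-likelihood test, Benjamini-Hochberg adjustment over 14164 genes). Of 17 genes for which HEL cells are known (erythroid, megakaryocytic and CD33), 16 were tested, and their summed level was 9759 to 10763 CPM in NT, 10902 to 11570 in Doxo, 11770 to 12584 in Doxo+Cyta and 7619 to 10531 in the decitabine group. Of 10 monocyte and macrophage markers, FCN1 and CD163 had 0 counts, these and S100A8, S100A9 and VCAN never exceeded 3, and the sum of all 10 was 84.6 to 89.0 CPM in NT, 134 to 207 in Doxo, 149 to 158 in Doxo+Cyta and 63.1 to 77.5 in the decitabine group. CD68 (33.2 to 157 CPM) and LYZ (26.3 to 44.9 CPM) were its most abundant genes, the sum was lowest in the decitabine group as many members were, and its part in their values was not tested. Of 8 lymphocyte markers, CD3E, CD3D and MS4A1 had at most 2 counts, CD2 was the most abundant (19.9 to 55.7 CPM), and the sum was 34.7 to 37.7 CPM in NT, 53.3 to 62.0 in Doxo, 45.5 to 67.5 in Doxo+Cyta and 25.7 to 50.2 in the decitabine group. It too was higher in the relapses without decitabine than in NT, and its part was not tested either. Doxo 4 and Doxo+Cyta 20 stood apart from the other libraries of their groups over all genes, with a chi-square per degree of freedom of 27.3 to 29.7 and 46.7 to 48.5 against 3.1 and 7.33 for the remaining pair.

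Promoter sequences were taken from RefSeq (GRCh38.p14) for 29 of the 37 members, with 47 start sites. Windows of 300 bases, from 250 before to 50 after a start, were searched on both strands for the kappaB consensus, the 10-base pattern that NF-kB dimers are known to bind. A match was held by 19 of the 47 member promoters (40.4%), 25 of 92 promoters of other NF-kB target genes (27.2%), 18 of 89 promoters of signalling components (20.2%) and 3956 of all 35116 promoters (11.3%). Among members higher in Doxo than in the decitabine group it was 9 of 26 promoters (34.6%), and among the other tested members 7 of 15 (46.7%). All these are counts of start sites and not of genes. Overlapping windows of MAP3K8, in the first set, and of LTB, in the other, count the same match more than once. The lines below give the 150 bases before the start, 5′ to 3′, with matches in capitals; they were chosen to show a subunit, both main inhibitors, the 3 closely related CXCL chemokines and, without a match, PTGS2.
NFKB2 (chr10:102394428-102394577, plus strand): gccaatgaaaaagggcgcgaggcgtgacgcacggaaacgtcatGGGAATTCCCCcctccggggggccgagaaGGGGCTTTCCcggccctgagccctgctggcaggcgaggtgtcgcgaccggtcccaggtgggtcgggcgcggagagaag
NFKBIA (chr14:35404750-35404899, minus strand): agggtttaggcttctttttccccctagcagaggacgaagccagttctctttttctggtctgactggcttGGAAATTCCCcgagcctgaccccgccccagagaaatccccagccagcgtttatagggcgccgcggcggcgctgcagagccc
TNFAIP3 (chr6:137867109-137867258, plus strand): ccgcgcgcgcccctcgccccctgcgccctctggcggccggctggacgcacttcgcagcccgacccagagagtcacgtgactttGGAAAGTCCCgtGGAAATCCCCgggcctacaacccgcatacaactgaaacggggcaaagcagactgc
CXCL1 (chr4:73869243-73869392, plus strand): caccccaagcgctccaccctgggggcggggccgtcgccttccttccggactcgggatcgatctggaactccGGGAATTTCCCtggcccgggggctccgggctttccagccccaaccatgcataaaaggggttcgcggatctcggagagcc
CXCL2 (chr4:74099196-74099345, minus strand): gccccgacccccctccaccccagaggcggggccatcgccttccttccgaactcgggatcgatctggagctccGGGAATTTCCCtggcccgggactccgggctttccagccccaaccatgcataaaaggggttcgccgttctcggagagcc
CXCL3 (chr4:74038690-74038839, minus strand): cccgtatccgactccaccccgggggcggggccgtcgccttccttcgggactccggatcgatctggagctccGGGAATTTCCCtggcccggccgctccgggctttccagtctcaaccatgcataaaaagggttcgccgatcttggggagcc
PTGS2 (chr1:186680424-186680573, minus strand): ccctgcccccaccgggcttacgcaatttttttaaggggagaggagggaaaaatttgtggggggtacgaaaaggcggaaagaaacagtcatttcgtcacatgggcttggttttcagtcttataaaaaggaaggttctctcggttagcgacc

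The 3 CXCL promoters hold an identical run of 11 bases that contains overlapping matches on both strands. Aligned at this run without gaps, 120 bases of CXCL1 and CXCL3 were 92.5% identical. Those of CXCL2 were 76.7% identical to CXCL1 and 73.3% to CXCL3. Just after the run the CXCL2 sequence is shorter, so that its later bases were compared out of register. Its lower values therefore do not show that CXCL2 is the most different of the 3. CXCL1 had 0 counts in all 12 libraries, whereas CXCL2 and CXCL3 were counted in each. The longest annotated transcripts of the 3 genes share no exact run of 100 bases with another gene. A match describes letters in a window and was not tested as a binding site.

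The comparisons ask which of these genes differed between untreated cells and the relapses of each regimen. Over all genes, most calls were made between the relapses with and without decitabine, and the members are read against that. Relative to the decitabine group, 18 of 31 members were higher and 2 lower in Doxo (all genes: 59.5% called, 30.4% higher and 29.1% lower), with a median log2 fold change of 0.75 against 0.01 over all genes. The share called, 64.5% of members, was thus near that of all genes, with 18 of the 20 calls on the higher side. In Doxo+Cyta, 12 were higher and 2 lower (all genes: 60.3% called, 30.5% higher and 29.8% lower), with a median of 0.34. That is 45.2% of members, below the share of all genes. Both comparisons share the 4 decitabine libraries, so that they are not independent of each other, and in bulk RNA fewer expressing cells cannot be told apart from less RNA per cell.

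Relative to NT, 7 members were higher and 0 lower in Doxo (all genes: 10.7% called, 6.06% higher and 4.63% lower, median log2 fold change 0.37 against 0.01): RELA, RELB, TNFAIP3, SQSTM1, TNFSF9, CXCL2 and PTGS2. At an unadjusted p under 0.05 it was 10 higher and 1 lower, and DESeq2 also gave 7 and 0. The count fell to 2 without NT 1 and to 2 without NT 2, TNFSF9 and PTGS2 in both, to 3 without Doxo 5 and to 4 without Doxo 6. The calls over all genes fell with it, from 1515 to 81, 105, 462 and 500 in the same order. Doxo+Cyta had 3 higher members, NFKB2, RELB and TNFSF9 (all genes: 1.46% called, 0.911% higher and 0.551% lower), against 11 higher and 0 lower at an unadjusted p under 0.05 and 5 higher with DESeq2. Without NT 1 or NT 2 edgeR called 0 members (7 and 6 at an unadjusted p under 0.05) and also 0 of all genes, against 207 with both. It called 1, 2 and 1 members without Doxo+Cyta 19, 20 and 22, and 26, 226 and 49 of all genes. In the decitabine group, 5 were higher and 8 lower (all genes: 48.7% called, 24.9% higher and 23.7% lower), a share near that of all genes in total and on the lower side, and 8 were called without NT 1, where calls over all genes fell from 6893 to 4461. Between Doxo and Doxo+Cyta, TNFSF9, CD69 and PTGS2 were higher in Doxo (all genes: 3.4% called, 2.32% higher and 1.07% lower), against 7 higher and 3 lower at an unadjusted p under 0.05 and 5 and 1 with DESeq2. This count was 1 without Doxo 5, Doxo 6, Doxo+Cyta 19 or Doxo+Cyta 22 and 5 without Doxo+Cyta 20, against 168, 186, 130, 373 and 550 of all genes in that order and 481 with every library. Fits without 1 NT library leave a single one, which is then assumed to vary like the other groups.

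**Figure D1:**
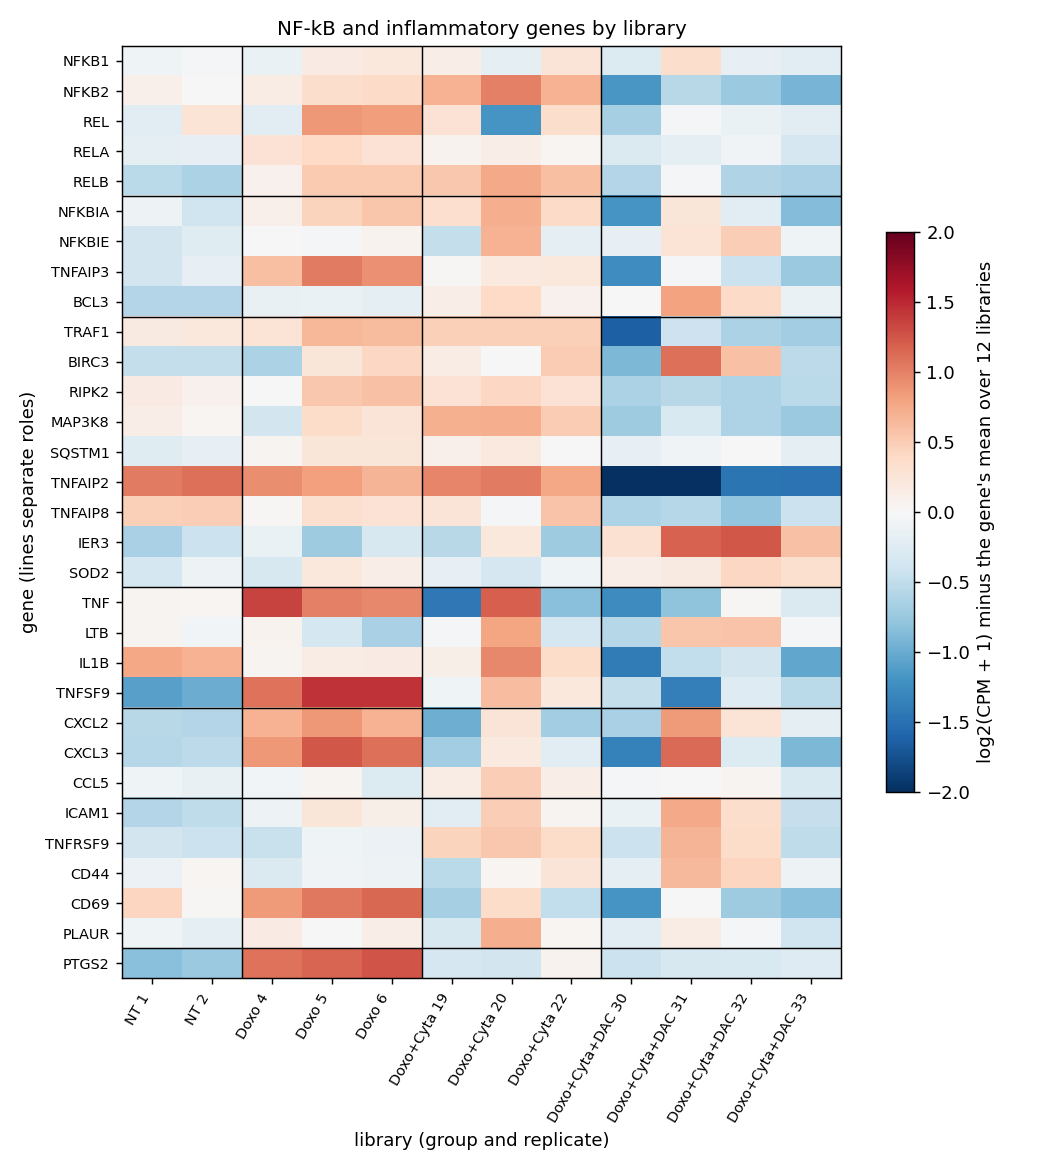
Level of each of the 31 tested members (vertical axis, grouped by role) in each of the 12 libraries (horizontal axis), as log2(CPM + 1) minus the gene's mean over the libraries, with colours limited to -2 and 2. TNFAIP2 is darkest in the 4 decitabine libraries and PTGS2 and TNFSF9 are highest in the 3 Doxo libraries.

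Among the 5 subunit genes, NFKB2, RELA and RELB were higher in both relapses without decitabine than in the decitabine group. NFKB2, the gene of the non-canonical precursor p100, had 141 and 131 CPM in NT, 145, 168 and 172 in Doxo, 213, 266 and 215 in Doxo+Cyta and 58.4, 89.7, 78.2 and 68.8 in the decitabine group. Every decitabine library lay below every other library, and every Doxo+Cyta library lay above. The log2 fold change was 1.14 ± 0.14 (adjusted p = 1.09e-05) for Doxo and 1.65 ± 0.14 (adjusted p = 4.21e-07) for Doxo+Cyta relative to the decitabine group, and the decitabine group was 1.84-fold lower than NT (log2 fold change -0.88 ± 0.15, adjusted p = 0.000359). Its rise in Doxo+Cyta relative to NT (0.76 ± 0.17, adjusted p = 0.0428) lost its call without any 1 of the 5 libraries of these groups (adjusted p from 0.0648 to 0.476). The difference between Doxo and Doxo+Cyta did not pass (-0.51, 95% interval -0.80 to -0.23, adjusted p = 0.0716), though it did with DESeq2 (adjusted p = 0.0254).

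RELB, the partner of the processed NFKB2 product, had 51.0 and 48.2 CPM in NT, 79.9, 108 and 108 in Doxo, 110, 127 and 114 in Doxo+Cyta and 49.4, 74.1, 49.1 and 47.5 in the decitabine group. The Doxo and Doxo+Cyta libraries all lay above those of NT and the decitabine group, which overlapped each other. It was 1.99-fold higher than NT in Doxo (log2 fold change 0.99 ± 0.19, adjusted p = 0.00801) and 2.36-fold higher in Doxo+Cyta (1.24 ± 0.20, adjusted p = 0.0188). Both calls were lost without NT 1 or NT 2 (adjusted p from 0.0964 to 0.371). Relative to the decitabine group the log2 fold changes were 0.84 ± 0.16 (adjusted p = 0.000401) for Doxo cells and 1.09 ± 0.16 (adjusted p = 4.34e-05) for Doxo+Cyta cells.

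RELA, the canonical transactivating subunit, differed less between groups. Its level was 128 and 129 CPM in NT, 176, 190 and 176 in Doxo, 151, 158 and 148 in Doxo+Cyta and 118, 128, 137 and 115 in the decitabine group, so that the Doxo libraries stood highest and NT overlapped the decitabine group. The log2 fold change was 0.50 ± 0.11 for Doxo relative to NT (adjusted p = 0.012), lost without NT 1, NT 2 or Doxo 5 (adjusted p from 0.0714 to 0.136). Relative to the decitabine group it was 0.54 ± 0.09 in Doxo (adjusted p = 0.000138) and, for Doxo+Cyta, 0.29 ± 0.09 (adjusted p = 0.0104). REL, the c-Rel gene, was called only in Doxo relative to the decitabine group (0.87 ± 0.34, adjusted p = 0.0409) with overlapping libraries, and lost the call without Doxo 5 or 6 or without decitabine library 30, 32 or 33 (adjusted p from 0.0617 to 0.152). In the longest annotated transcript of REL, of 11255 bases, 50.2% of 100-base windows also occur in other genes. The exons that were counted cover 7827 bases, so that this share is not that of the counted bases. NFKB1, the gene of p105 and p50, passed no comparison, with group means between 76.0 and 84.0 CPM.

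The inhibitors and feedback genes were split. NFKBIA, the classical NF-kB inhibitor, had 42.4 and 34.4 CPM in NT, 49.4, 62.3 and 67.9 in Doxo, 57.7, 76.0 and 59.9 in Doxo+Cyta and 19.5, 54.4, 39.0 and 24.6 in the decitabine group. The last group varied most, and its library 31 reached into the Doxo range. Relative to it the log2 fold change was 0.80 ± 0.26 in Doxo (adjusted p = 0.0183), a call lost without Doxo 5, Doxo 6 or decitabine library 33 (adjusted p from 0.0518 to 0.0712), and 0.91 ± 0.26 in Doxo+Cyta (adjusted p = 0.00879). TNFAIP3, the ubiquitin-editing enzyme A20 that ends NF-kB signalling, had 66.2 and 76.3 CPM in NT, 131, 177 and 163 in Doxo, 87.5, 98.6 and 99.98 in Doxo+Cyta and 35.5, 83.2, 63.1 and 51.0 in the decitabine group. The Doxo libraries exceeded all others. Doxo relative to Doxo+Cyta did not pass for TNFAIP3 (0.72 ± 0.22, adjusted p = 0.0977). It did with DESeq2 (adjusted p = 0.0374) and without the low-count filter (adjusted p = 0.047). Its log2 fold change relative to the decitabine group was 1.43 ± 0.21 in Doxo (adjusted p = 5.48e-05) and, for Doxo+Cyta, 0.71 ± 0.21 (adjusted p = 0.00925), and relative to NT it was 1.14 ± 0.26 in Doxo (adjusted p = 0.0153), lost without NT 1, NT 2, Doxo 5 or Doxo 6 (adjusted p from 0.0552 to 0.161).

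BCL3, a nuclear member of the inhibitor family, was not lower in the decitabine group than in the other groups. It had 43.0 and 42.8 CPM in NT, 56.3 to 58.9 in Doxo, 68.6 to 85.7 in Doxo+Cyta and 64.7, 114, 84.9 and 59.2 in the decitabine group. All relapse libraries lay above NT, and the rise passed the test in the decitabine group (log2 fold change 0.91 ± 0.21, adjusted p = 0.00315). In Doxo+Cyta it was 0.81 ± 0.22 (adjusted p = 0.078), called with DESeq2 (adjusted p = 0.0193) and without the low-count filter (adjusted p = 0.0496). In Doxo it was 0.43 ± 0.22 (adjusted p = 0.215), called when only Doxo and NT were fitted (adjusted p = 0.0375). BCL3 was lower in Doxo than in the decitabine group (-0.48 ± 0.18, adjusted p = 0.0353). This call was lost without any of the 3 Doxo libraries or without decitabine library 31 or 32 (adjusted p from 0.0626 to 0.115). It was also lost with upper-quartile scaling (adjusted p = 0.0501) and when only the groups compared were fitted (adjusted p = 0.056). Doxo+Cyta relative to the decitabine group was not called (-0.10 ± 0.18, adjusted p = 0.639). NFKBIE, a further cytoplasmic inhibitor, passed no comparison; without Doxo+Cyta 20, its highest library at 32.8 CPM, it was lower in Doxo+Cyta than in the decitabine group (-0.50, adjusted p = 0.0297).

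**Figure D2:**
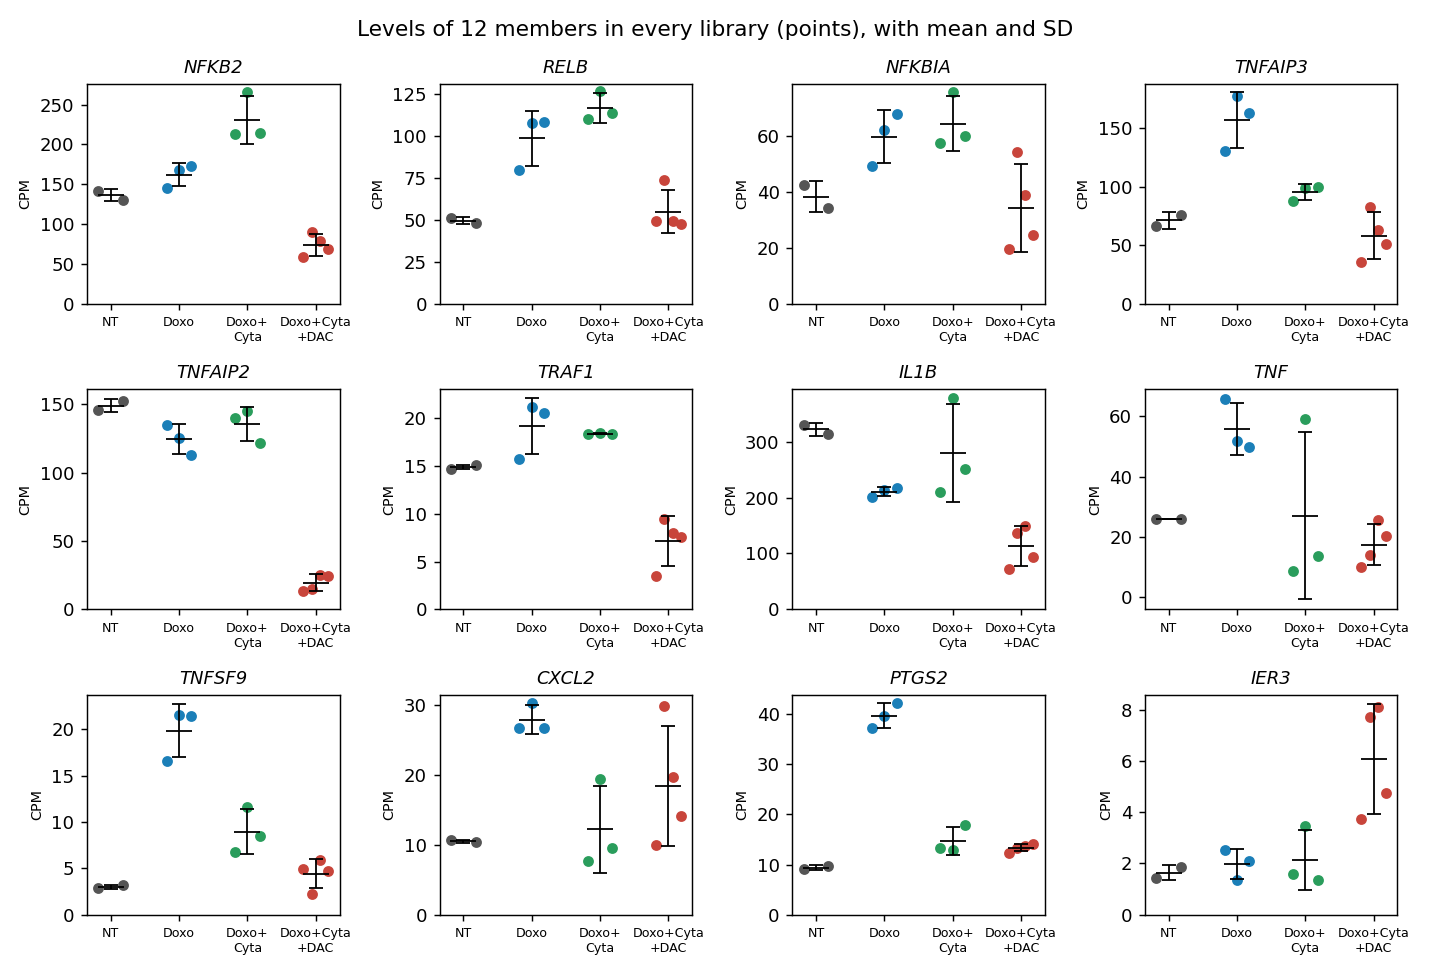
CPM (vertical axis, linear from 0, or below it where the SD bar of TNF reaches there) of 12 members in the 12 libraries by group (horizontal axis); points are libraries, long ticks the group mean and bars the SD. TNFAIP2 lies at 13.5 to 24.8 CPM in the decitabine group and at 113 or more elsewhere, and TNF in Doxo+Cyta rests on replicate 20 at 59.0 CPM against 8.72 and 13.6.

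The largest fold change of a tested member in the 6 comparisons was that of TNFAIP2, a TNF-induced gene of myeloid and endothelial cells, at chr14:103126327-103137439 (GRCh38, plus strand). It had 145 and 153 CPM in NT, 135, 125 and 113 in Doxo, 140, 145 and 121 in Doxo+Cyta and 13.5, 15.1, 24.8 and 24.5 in the decitabine group. The groups without decitabine lay close together and far above the 4 decitabine libraries. It was 7.65-fold lower in the decitabine group than in NT (log2 fold change -2.94 ± 0.20, adjusted p = 4.17e-07), and Doxo and Doxo+Cyta exceeded the decitabine group 6.39-fold (2.68 ± 0.19, adjusted p = 2.23e-07) and 6.96-fold (2.80 ± 0.19, adjusted p = 9.25e-08). These 3 calls held under every alternative tried.

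Of the other signalling and survival genes, TRAF1, RIPK2, MAP3K8 and TNFAIP8 were lower in the decitabine group than in each of the other groups. TRAF1, an adaptor of TNF receptors, had 14.7 and 15.1 CPM in NT, 15.8 to 21.2 in Doxo, 18.3 to 18.5 in Doxo+Cyta and 3.49, 9.49, 8.03 and 7.60 in the decitabine group, a log2 fold change of 1.43 ± 0.23 for Doxo (adjusted p = 0.000148) and 1.36 ± 0.23 for Doxo+Cyta (adjusted p = 0.000196) relative to the latter. RIPK2, the kinase downstream of NOD receptors, had 46.8 to 50.3 CPM in the decitabine group and 72.7 to 110 in the other groups, with 0.99 ± 0.13 in Doxo (adjusted p = 1.87e-05) and, for Doxo+Cyta, 0.94 ± 0.13 (adjusted p = 2.67e-05). Neither gene's decitabine libraries overlapped those of another group. MAP3K8, a kinase that links these signals to ERK, had 9.66 to 13.5 CPM in the decitabine group, 12.8, 22.0 and 20.3 in Doxo and 24.5 to 28.5 in Doxo+Cyta, with 0.75 ± 0.18 (adjusted p = 0.00246) and 1.31 ± 0.18 (adjusted p = 2.45e-05). TNFAIP8, a survival factor, had 21.7 to 28.0 CPM against 37.3 to 57.1 in the other groups, with 0.84 ± 0.14 (adjusted p = 0.000211) and 0.91 ± 0.14 (adjusted p = 9.31e-05). Relative to NT these 4 fell by 0.72 to 1.11 on the log2 scale in the decitabine group (adjusted p from 9.07e-05 to 0.00868), of which MAP3K8 lost its call without NT 1 (adjusted p = 0.0739). RIPK2 was also called higher in Doxo than in NT without Doxo 4 (0.41, adjusted p = 0.0194).

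IER3 was higher in the decitabine group than in every other group, and SOD2 than in NT and Doxo+Cyta. IER3, an immediate early gene of apoptosis control, had 1.44 and 1.85 CPM in NT, 2.51, 1.34 and 2.08 in Doxo, 1.61, 3.47 and 1.34 in Doxo+Cyta and 3.74, 7.70, 8.08 and 4.75 in the decitabine group, with no overlap between the last group and the rest. It was 3.71-fold higher than NT (log2 fold change 1.89 ± 0.43, adjusted p = 0.00256), 3.09-fold higher than Doxo (adjusted p = 0.00163) and 2.86-fold higher than Doxo+Cyta (adjusted p = 0.00241). The counts behind these levels are low, 22 to 154 per library, and include copies on 5 alternate contigs. SOD2, the mitochondrial superoxide dismutase, had 42.0 to 50.7 CPM in the decitabine group and 29.6 to 44.004 elsewhere, and was called relative to NT (0.50 ± 0.16, adjusted p = 0.0192, but 0.201 without NT 1) and Doxo+Cyta (log2 fold change of Doxo+Cyta relative to it -0.47 ± 0.14, adjusted p = 0.0105).

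SQSTM1, the autophagy receptor p62 that also scaffolds NF-kB signalling, was slightly higher in Doxo, at 112 to 128 CPM against 91.4 and 95.7 in NT (log2 fold change 0.39 ± 0.11, adjusted p = 0.0417) and 94.3 to 107 in the decitabine group (0.29 ± 0.09, adjusted p = 0.0153). The first call was lost without NT 1, NT 2, Doxo 5 or Doxo 6 (adjusted p from 0.163 to 0.273) and the other without Doxo 5 or 6 (adjusted p from 0.0645 to 0.073). With no replicate left out, the first call was also lost with upper-quartile scaling (adjusted p = 0.0608) and without the low-count filter (adjusted p = 0.131). It was lost too when only Doxo and NT were fitted (adjusted p = 0.0532). Doxo+Cyta exceeded the decitabine group with upper-quartile scaling (0.30, adjusted p = 0.0108) and with at least 10 counts in every sample (0.25, adjusted p = 0.0264). Exons of other genes cover 21.7% of the exon bases of SQSTM1, where the authors' counting left fragments out. BIRC3, the ubiquitin ligase cIAP2, passed no comparison, with 11.8, 50.3, 35.1 and 15.7 CPM in the decitabine group; without replicate 30 it was called higher than NT (1.07, adjusted p = 0.0459).

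Of the cytokines, IL1B was the member with the highest level per kilobase of exon, a mean of 215 CPM per kb in NT. It had 330 and 314 CPM in NT, 202, 214 and 216 in Doxo, 209, 379 and 250 in Doxo+Cyta and 72.2, 137, 150 and 93.3 in the decitabine group, whose libraries all lay below the rest. It was 2.85-fold lower in the decitabine group than in NT (log2 fold change -1.51 ± 0.25, adjusted p = 0.000251), and Doxo and Doxo+Cyta exceeded the decitabine group by 0.90 ± 0.22 (adjusted p = 0.00349) and 1.31 ± 0.22 (adjusted p = 0.000198). The Doxo libraries also lay below NT, a difference of -0.61 ± 0.27 that did not pass (adjusted p = 0.15). The difference did pass when only Doxo and NT were fitted (adjusted p = 0.00834).

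TNFSF9, the ligand of the costimulatory receptor 4-1BB, rose most in Doxo relative to NT. Its level was 2.88 and 3.16 CPM in NT, 16.5, 21.5 and 21.5 in Doxo, 6.80, 11.6 and 8.49 in Doxo+Cyta and 4.90, 2.201, 5.88 and 4.67 in the decitabine group, and neither Doxo nor Doxo+Cyta overlapped any other group. It was 6.57-fold higher in Doxo than in NT (log2 fold change 2.72 ± 0.34, adjusted p = 0.000667), under every alternative, and 4.46-fold higher than in the decitabine group (2.16 ± 0.26, adjusted p = 9.84e-06). In Doxo+Cyta it was 2.97-fold higher than in NT (1.57 ± 0.34, adjusted p = 0.0402), a call lost without any 1 of the 5 libraries (adjusted p from 0.0575 to 0.435), and 2.01-fold higher than in the decitabine group (1.01 ± 0.26, adjusted p = 0.00432). The direct test of Doxo against Doxo+Cyta gave 1.15 ± 0.27 (adjusted p = 0.0332), lost without Doxo 5, Doxo 6, Doxo+Cyta 19 or Doxo+Cyta 22 (adjusted p from 0.0789 to 0.126). Without decitabine library 31, this group too was called above NT (0.78, adjusted p = 0.022).

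TNF itself had 26.1 and 26.0 CPM in NT, 65.8, 51.7 and 49.99 in Doxo, 8.72, 59.0 and 13.6 in Doxo+Cyta and 9.98, 14.03, 25.6 and 20.4 in the decitabine group. Doxo lay above NT and the decitabine group, and in Doxo+Cyta a single library, replicate 20, reached the Doxo range. Doxo exceeded the decitabine group 3.18-fold (log2 fold change 1.67 ± 0.48, adjusted p = 0.00824), and relative to NT the value was 1.10 ± 0.59 (adjusted p = 0.235; 0.00731 when only Doxo and NT were fitted). Doxo against Doxo+Cyta gave 1.04 ± 0.51 (adjusted p = 0.286), and 2.31 (adjusted p = 0.00174) without Doxo+Cyta 20. TNF counts include copies on 7 alternate contigs. LTB, lymphotoxin beta, lay between 2.97 and 9.74 CPM over all libraries and passed no comparison.

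The neutrophil chemokines CXCL2 and CXCL3, neighbours on chromosome 4, had like profiles. CXCL2 had 10.7 and 10.4 CPM in NT, 26.7, 30.3 and 26.8 in Doxo, 7.73, 19.4 and 9.53 in Doxo+Cyta and 9.98, 29.9, 19.7 and 14.1 in the decitabine group. CXCL3 had 9.93 and 10.3, then 28.7, 37.5 and 33.7, then 9.03, 17.7 and 12.96, and then 5.39, 34.7, 12.4 and 7.68 CPM. For both genes the Doxo libraries lay above NT and Doxo+Cyta, while decitabine library 31 lay among the Doxo libraries.

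CXCL2 was called in Doxo relative to NT (log2 fold change 1.41 ± 0.41, adjusted p = 0.0428), lost without NT 1, NT 2, Doxo 5 or Doxo 6 (adjusted p from 0.103 to 0.234). Doxo relative to Doxo+Cyta was called with DESeq2 (1.20, adjusted p = 0.0149) and without the low-count filter (adjusted p = 0.0282). It was called as well without Doxo+Cyta 20 (1.69, adjusted p = 0.0168). In that last fit CXCL2 was also lower in Doxo+Cyta than in the decitabine group (-1.09, adjusted p = 0.0107). Without decitabine library 31 it was higher in Doxo than in the decitabine group (0.93, adjusted p = 0.0165), and without replicate 30 the decitabine group exceeded NT (1.01, adjusted p = 0.0344) and Doxo+Cyta (log2 fold change of Doxo+Cyta relative to it -0.80, adjusted p = 0.0427). CXCL3 was called in Doxo relative to the decitabine group (1.15 ± 0.45, adjusted p = 0.0396), lost without Doxo 4, 5 or 6 or decitabine library 30, 32 or 33 (adjusted p from 0.0506 to 0.103) and with DESeq2 (adjusted p = 0.0888). In Doxo relative to NT it stood at 1.72 ± 0.57 (adjusted p = 0.0685). That difference was called without the low-count filter (adjusted p = 0.0234) and when only Doxo and NT were fitted (adjusted p = 0.00228).

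The remaining chemokines were low or absent. CCL5 lay between 0.95 and 2.40 CPM and passed no comparison. CCL2, a monocyte chemoattractant, had 3, 10, 11 and 2 counts in the 4 decitabine libraries and 0 or 1 in each other library; it met the count rule but not the filter of the test. Since only that group brought it past the rule, no test of it is given. IL6 never exceeded 5 counts and CXCL10 3 counts, and CXCL1, CCL3 and CCL4 had 0 in all libraries. In the authors' annotation, exons of other genes cover 97.7% of the exon bases of CCL3 and 100% of those of CCL4, and fragments on several genes were not counted, so that the zeros of these 2 genes measure nothing.

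Among the surface proteins, CD69, an early activation antigen, had 82.1 and 61.5 CPM in NT, 110, 126 and 136 in Doxo, 37.7, 78.3 and 42.8 in Doxo+Cyta and 26.1, 60.1, 36.3 and 33.3 in the decitabine group. The Doxo libraries were the 3 highest of all 12. Doxo exceeded the decitabine group 3.19-fold (log2 fold change 1.67 ± 0.27, adjusted p = 0.000123) and Doxo+Cyta 2.34-fold (1.23 ± 0.29, adjusted p = 0.0351), the latter lost without Doxo 5, Doxo 6, Doxo+Cyta 19 or Doxo+Cyta 22 (adjusted p from 0.0961 to 0.135). The decitabine group was lower than NT (-0.88 ± 0.30, adjusted p = 0.0246), lost without NT 1 or decitabine library 30, 32 or 33 (adjusted p from 0.0533 to 0.212), and without decitabine library 31 Doxo+Cyta exceeded it (0.73, adjusted p = 0.0187).

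ICAM1, an adhesion molecule for leukocyte integrins, had 7.92 and 8.40 CPM in NT and 8.71 to 21.6 in the relapses. It was called in the decitabine group relative to NT (0.82 ± 0.31, adjusted p = 0.0392), lost without NT 1, NT 2 or decitabine library 31 or 32 (adjusted p from 0.0781 to 0.181). That call was also lost with upper-quartile scaling (adjusted p = 0.0594). ICAM1 was called in Doxo relative to NT when only Doxo and NT were fitted (0.70, adjusted p = 0.0359). TNFRSF9, the receptor 4-1BB, the hyaluronan receptor CD44 and the urokinase receptor PLAUR passed no comparison. Single omissions brought calls for each: without decitabine library 33 TNFRSF9 exceeded NT in that group (0.74, adjusted p = 0.0424), without replicate 31 it was higher in Doxo+Cyta (0.61, adjusted p = 0.0307), without replicate 30 CD44 was lower in Doxo (-0.51, adjusted p = 0.0477), and without Doxo+Cyta 19 PLAUR was higher in Doxo+Cyta (0.57, adjusted p = 0.0277), the last 3 relative to the decitabine group.

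PTGS2, the inducible cyclooxygenase COX-2 of prostaglandin synthesis, was higher in Doxo than in each other group. It had 9.05 and 9.77 CPM in NT, 37.3, 39.5 and 42.2 in Doxo, 13.3, 12.9 and 17.9 in Doxo+Cyta and 12.4, 13.3, 13.6 and 14.02 in the decitabine group. Each Doxo library stood above every other library, and Doxo+Cyta overlapped the decitabine group. Doxo exceeded NT 4.21-fold (log2 fold change 2.08 ± 0.17, adjusted p = 3.38e-05), the decitabine group 2.97-fold (1.57 ± 0.13, adjusted p = 6.43e-07) and Doxo+Cyta 2.69-fold (1.43 ± 0.14, adjusted p = 0.000243), and all 3 calls held under every alternative tried. The decitabine group also exceeded NT (0.50 ± 0.16, adjusted p = 0.0165), lost without NT 1 or NT 2 (adjusted p of 0.136 and 0.0662). In Doxo+Cyta the value relative to NT was 0.65 ± 0.16 (adjusted p = 0.0652). It was called with DESeq2 (0.63, adjusted p = 0.0134) and without Doxo+Cyta 20 (adjusted p = 0.0483).

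**Figure D3:**
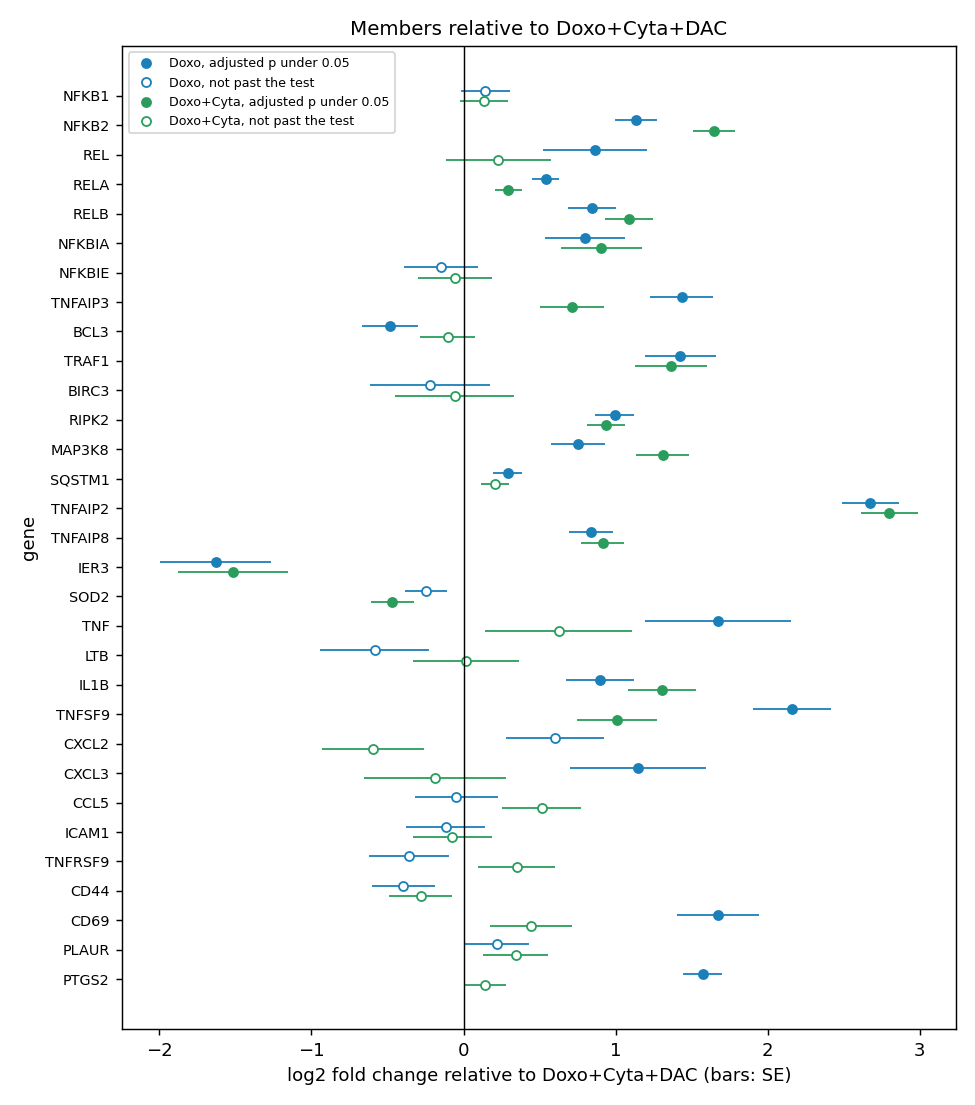
Log2 fold change (horizontal axis; bars are SE) of the 31 tested members (vertical axis) in each relapse without decitabine, Doxo in blue and Doxo+Cyta in green, relative to the decitabine group, which both share; filled points passed an adjusted p under 0.05. TNFAIP2 lies farthest to the right at 2.68 and 2.80, IER3 farthest to the left at -1.63 and -1.51, and PTGS2 lies at 1.57 in Doxo and 0.14 in Doxo+Cyta.

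For context, 2 further lists were counted, 54 of 78 other NF-kB target genes and 67 of 75 signalling components having been tested. In Doxo relative to NT, 12 other targets were higher (22.2% of the list called, 10.7% of all genes), with a median of 0.56, and those with the smallest adjusted p included CXCL8 (log2 fold change 4.29 ± 0.43), the neutrophil chemokine interleukin 8, and the nuclear receptor NR4A2 (2.31 ± 0.24). Relative to NT in Doxo+Cyta, CXCL8 (2.28 ± 0.43) and TNFRSF4 (1.56 ± 0.35) were the 2 called (3.7% of the list, 1.46% of all genes). Relative to the decitabine group, 33 were higher and 10 lower in Doxo and 26 higher and 11 lower in Doxo+Cyta, which is 79.6% and 68.5% of the list against 59.5% and 60.3% of all genes. Those with the smallest adjusted p were KLF6 (2.19 ± 0.21), SAT1 (2.49 ± 0.25) and ZC3H12A (1.64 ± 0.17) in Doxo and PSMB9 (1.30 ± 0.11), IRF5 (1.54 ± 0.14) and PNRC1 (1.97 ± 0.19) in Doxo+Cyta. On the lower side in Doxo stood SLC2A6 (-2.72 ± 0.37), CYBB (-1.38 ± 0.21) and CCR7. In Doxo+Cyta these were SLC2A6 (-2.33 ± 0.36), CYBB (-1.32 ± 0.21) and DRAM1 (-1.15 ± 0.16). CCR7 averaged 0.130 CPM in Doxo against 0.862 CPM in the decitabine group. Its Doxo level lay under the lowest level taken as measurable, so that no fold change of it is given.

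Of the signalling components, 7 were higher and 2 lower in Doxo than in NT (13.4% of the list, 10.7% of all genes), among them the receptors TLR1 (log2 fold change 1.84 ± 0.31) and TNFRSF10B (2.48 ± 0.46) and the adaptor BCL10 (0.70 ± 0.15) upward and FADD (-0.67 ± 0.16) and the kinase IKBKB (-0.52 ± 0.14) downward. Relative to the decitabine group, 17 were higher and 22 lower in Doxo, and 15 higher and 21 lower in Doxo+Cyta, 58.2% and 53.7% of the list against 59.5% and 60.3% of all genes. The shares of this list were thus near those of all genes. CHUK, the kinase IKKalpha of the non-canonical pathway, was lower in Doxo (-1.24 ± 0.13) and Doxo+Cyta (-1.70 ± 0.13) than in the decitabine group, and in Doxo+Cyta also lower than in NT (-0.70 ± 0.15, the single call of the list there). UBE2N, a ubiquitin-conjugating enzyme, was lower in Doxo (-1.15 ± 0.13) and Doxo+Cyta (-1.26 ± 0.13), FADD in Doxo (-1.27 ± 0.14) and TNFRSF10A in Doxo+Cyta (-1.10 ± 0.13). RBCK1, a subunit of the linear ubiquitin ligase, was higher in Doxo (0.82 ± 0.10) and Doxo+Cyta (1.21 ± 0.10), NOD1 likewise (1.06 ± 0.14, and 0.95 ± 0.14), MALT1 in Doxo (0.89 ± 0.17) and TNIP1 in Doxo+Cyta (0.76 ± 0.14). In the decitabine group relative to NT, 24 signalling components were higher and 11 lower (52.2% called), and 13 other targets higher and 17 lower (55.6%), against 48.7% of all genes.

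Libraries within a group differed in these genes. Doxo+Cyta 20 was the highest of its group for 23 of 31 members (74.2%; 45.3% of all genes) and Doxo 4 the lowest of its group for 23 (74.2%; 43.5% of all genes). In the decitabine group, replicate 31 was highest for 17 members (54.8%; 27.6% of all genes) and replicate 30 lowest for 20 (64.5%; 24.1% of all genes). The median coefficient of variation of a member within a group was 13.3% in Doxo, 18.9% in Doxo+Cyta and 30.8% in the decitabine group. TNF in Doxo+Cyta (102.3%) and CXCL3 in the decitabine group (89.2%) stood at the upper end. This spread was not computed over all genes, so that it cannot be called particular to the members. Without Doxo 4, 17 members were higher and 1 lower in Doxo relative to the decitabine group, and without Doxo+Cyta 20, 12 were higher and 4 lower in Doxo+Cyta.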

How the data were processed

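RNA of 12 samples was sequenced on an Illumina HiSeq2000 as paired-end reads from TruSeq libraries. The authors quality-filtered the reads, aligned them to GRCh38 with Bowtie2 2.2.8, an aligner that does not join the exons of a spliced read, and deposited raw counts of fragments for each gene from featureCounts 1.6.0, which was run without strand, leaves out fragments over several genes and applied no normalization. The series text names 3 untreated replicates and 13 alignments stand in the file header, whereas 2 untreated samples are labelled and were used. Of 26485 genes, 4 lacked a count and were left out.

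Counts were fitted with edgeR 4.0.16 (R 4.3.3): filterByExpr left 14164 genes, TMM scaling, 1 quasi-likelihood model over all 12 samples, and Benjamini-Hochberg adjustment over all tested genes of each of 6 comparisons, two-sided. In a test on simulated data for Doxo relative to NT (13927 genes), 81% of 2-fold and 99% of 4-fold changes were called. The changed genes were drawn only from those above a minimum mean level. These shares therefore do not cover the members with the lowest levels, such as CCL5 and IER3. Alternatives were DESeq2 1.42.0, RLE and upper-quartile scaling, no filter, at least 10 counts in every sample, only the groups compared, and leaving out each replicate. Named genes are all members with at least 10 counts in 2 samples and, of 2 fixed lists, the 3 called genes per direction with the smallest adjusted p in the comparisons of Doxo and Doxo+Cyta with NT and with Doxo+Cyta+DAC, of which 1 gene is not reported here. Lists of monocyte and lymphocyte markers and of stromal and epithelial markers (1 of 9 tested, summed level at most 1.47 CPM) were counted as well. The members and lists were chosen with earlier results of these data known. Exon lengths per kilobase, gene positions and overlaps come from the annotation columns of the deposited table, shared windows from GENCODE 44, and promoters from RefSeq. Python 3.11.15 with pandas 2.3.3 and matplotlib 3.10.9 drew the figures. No 2 libraries of a group agreed within sampling noise (chi-square per degree of freedom of at least 3.1). Where replicates were not separate cultures, the p-values measure only the spread between these samples.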

Additional observations from a re-analysis of the deposited data

Results flagged for a closer look

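Over the 4 decitabine libraries (Doxo+Cyta+DAC), 1 library lay far from the other 3 for 2 of the 32 members checked, in both cases replicate 31. NFKB1 stood at 102 CPM there and at 65.5 to 70.2 CPM in the others, and RELB at 74.1 CPM against 47.5 to 49.4 CPM. The gap to the nearest library, as a share of the range of the 4, exceeded Dixon's 95% critical value, which chance alone exceeds in about 1 of 20 groups. Replicate 31 was also the highest of its group for 17 of 31 members. Its part in the comparisons was not tested beyond leaving it out, after which 19 members were higher and 1 lower in Doxo, and 14 higher and 2 lower in Doxo+Cyta, than in the decitabine group.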

How the results depend on the processing

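No call of a member changed direction under any alternative. The 14 calls of Doxo+Cyta relative to Doxo+Cyta+DAC held under every alternative, as did 15 of 20 for Doxo relative to Doxo+Cyta+DAC, 8 of 13 for Doxo+Cyta+DAC relative to NT, 2 of 7 for Doxo relative to NT, 1 of 3 for Doxo relative to Doxo+Cyta and 0 of 3 for Doxo+Cyta relative to NT. With DESeq2 the number of members called was 5 for Doxo+Cyta relative to NT and 6 for Doxo relative to Doxo+Cyta, and 6 for the latter when no gene was filtered out for low counts. With only the groups compared in the fit, it was 13 against 7 for Doxo relative to NT. It was 1 against 3 both for Doxo+Cyta relative to NT and for Doxo relative to Doxo+Cyta. Calls lost in this fit included NFKB2 and TNFSF9 in the former of these, TNFSF9 and CD69 in the latter. CXCL3 in Doxo relative to Doxo+Cyta+DAC was lost as well. Such a fit has fewer samples and leaves out the spread of the other groups. The cause of these changes was not tested for any of the settings. Leaving out 1 replicate at a time gave 2 to 8 members for Doxo relative to NT, 0 to 2 for Doxo+Cyta relative to NT, 8 to 14 for Doxo+Cyta+DAC relative to NT, 15 to 20 for Doxo relative to Doxo+Cyta+DAC, 14 to 16 for Doxo+Cyta relative to Doxo+Cyta+DAC and 1 to 5 for Doxo relative to Doxo+Cyta, and a lone NT sample was assumed to vary like the other groups. No paired analysis was possible because no replicate number is shared between groups. Depth limits LTB, IER3, CCL5 and CCL2 most, with at most 157, 154, 36 and 11 counts per library.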
